A study of Mus musculus with 6 samples.

Results

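The clustered protocadherins of the mouse lie side by side on chromosome 18 as the alpha (Pcdha), beta (Pcdhb) and gamma (Pcdhg) clusters. Taken as all protein-coding RefSeq genes on that chromosome whose symbol begins Pcdha, Pcdhb or Pcdhg, they number 57 of the 21631 genes that code for proteins on the autosomes and X: 14 Pcdha, 22 Pcdhb and 21 Pcdhg genes. The rule that defines them uses name and position, not a measured value. The set was chosen with earlier results of these data known. Chromatin accessibility was measured by ATAC-seq, in which a transposase cuts open DNA, in wild-type (WT) BALB/c bone marrow macrophages from 2 ages of mice. The old group came from mice over 78 weeks old and the young group from mice 3 weeks old, with 3 libraries of 50000 cells in each. In both groups, marrow from crushed leg and arm bones was cultured, non-adherent cells were removed, and the expanded adherent cells were typed as F4/80+CD169+. The series title concerns the progression of acute B-cell leukaemia in aged marrow and the chemokine CXCL13 with its receptor CXCR5; old and young macrophages are the only groups. The labels do not say whether libraries of a group came from separate mice or cultures, so each p-value measures only the spread between these libraries.

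Clustered protocadherins are cadherin-like adhesion proteins of the cell surface, best known from neurons, where each cell uses its own combination of them to recognise itself. In the alpha and gamma clusters every gene has its own large variable exon with its own promoter, which is spliced to constant exons shared by the whole cluster; each beta gene is a single variable exon. The promoter choice depends in neurons on CTCF and cohesin, which bring a promoter to distal enhancers, and on DNA methylation, which keeps unused promoters silent, whereas the C-type exons at the end of the alpha and gamma arrays are regulated apart from the rest. What these genes do in macrophages is less well described, and the deposited lists hold accessibility only, not RNA.

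Peaks, the stretches of DNA called as accessible, were listed for each library on its own. There were 245667, 227978 and 215947 peaks in the old lists and 243924, 223018 and 254410 in the young lists. On these chromosomes they covered 63.7, 48.2 and 48.9 Mb in old and 62.2, 52.3 and 66.0 Mb in young libraries. Old libraries 2 and 3 had the least covered length, and read depth is unknown, so the absence of a peak says only that none was called. Covered base pairs were therefore scaled to each library's total, and the part of list length in any difference was not tested. In cells pooled for a library, fewer cells with an open site and a less open site in each cell cannot be told apart. The loci of all 10 macrophage markers examined held peaks, those of Adgre1 (F4/80) and Siglec1 (CD169) included. Marker loci of other cell types held peaks too; the erythroid Gata1, with no peak in 4 of the 6 libraries, was the only marker locus at 0 in any library. The 10 stromal loci summed to 29970 to 32056 bp in old and 29946 to 32866 bp in young libraries, and the 6 neuronal loci to 13337 to 17247 bp in old and 14891 to 18354 bp in young libraries. The 5 endothelial loci summed to 12319 to 13106 bp in old and 13647 to 13754 bp in young libraries, and these did not overlap; their part in the results was not tested. B cell loci summed to 25871 to 27749 bp in old and 21672 to 27316 bp in young libraries, neutrophil and progenitor loci to 6726 to 8684 and 7731 to 8635 bp in old and young libraries, and erythroid loci to 4813 to 5724 and 5355 to 5990 bp in old and young libraries. The summed macrophage loci ran from 35646 to 38146 bp in old and from 37927 to 38503 bp in young libraries.

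The clusters span 911.6 kb and were unevenly covered at both ages. Means over the 6 libraries were 20.6 bp per 10 kb in the beta array and 1218 in the gamma constant region. The clusters held 62, 60 and 59 peaks in the old libraries, and 61, 55 and 74 peaks in the young libraries. Of these, only 5, 6 and 5 peaks in old and 7 in each young library were among the 50000 peaks of their library with the highest −log10 q, the caller's own measure of confidence. The lists held 215753 to 254221 peaks in all on these chromosomes. Most cluster peaks were short, with median widths of 110.0 to 142.0 bp in old and 108.0 to 125.0 bp in young libraries. Short peaks were usual, as the medians of the whole lists were 139.0 to 168.0 bp in old and 152.0 to 169.0 bp in young libraries. Merging overlapping peaks over the libraries gave 100 regions. Of these, 65 touched the stretch from 1.0 kb outside to 2.5 kb inside a member's variable-exon end, and 35 lay elsewhere. A peak was present in all 6 libraries at 26 regions and in a single library at 40 regions, shares that can be set beside 30.0% and 40.7% of the 403801 regions of the genome.

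**Figure D1:**
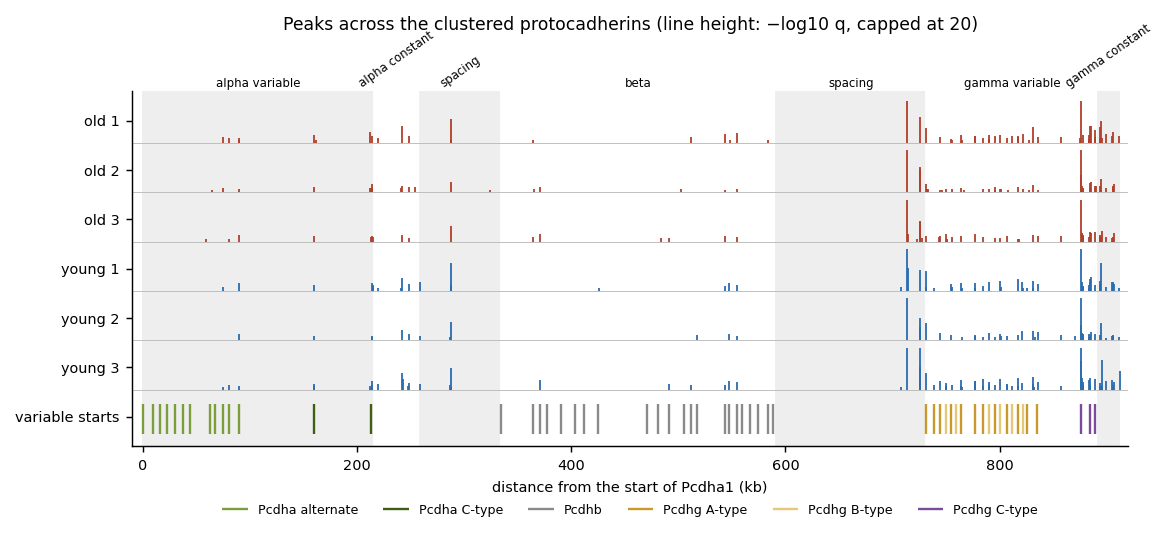
Peaks of each library, old rows above young rows, by distance in kb from the start of Pcdha1; line height is the peak's −log10 q, capped at 20, and coloured ticks in the lowest row mark the starts of the 57 variable exons by class. Peaks were frequent over the gamma variable exons and rare over the first alpha exons and most of the beta array at both ages.

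Each member was described by a window of 3500 bp at its variable-exon end, from 1.0 kb outside the gene to 2.5 kb inside it, so values are comparable between genes. No 2 of these windows overlap. At least 1 peak in every library was found for 14 members (24.6%), a peak in 1 to 5 libraries for 23 members, and no peak in any library for 20 members (35.1%). The median member had 31.2 bp covered. For all protein-coding genes, whose strand was not used, the better-covered of the 2 gene ends held peaks in all 6 libraries for 69.9% and in none for 19.3%, with a median of 699 bp. Taking the better of a pair of ends sets these values higher by construction; over all 43262 gene ends 45.9% held peaks in all 6 libraries, 64.4% in at least 1 and 35.6% in none, a share close to that of the members, and the median was 75.4 bp. The 30 genes that neighbour the clusters within 500 kb, or lie between them, had a median of 846 bp at their better end, and 26 of them held peaks in all 6 libraries.

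**Figure D2:**
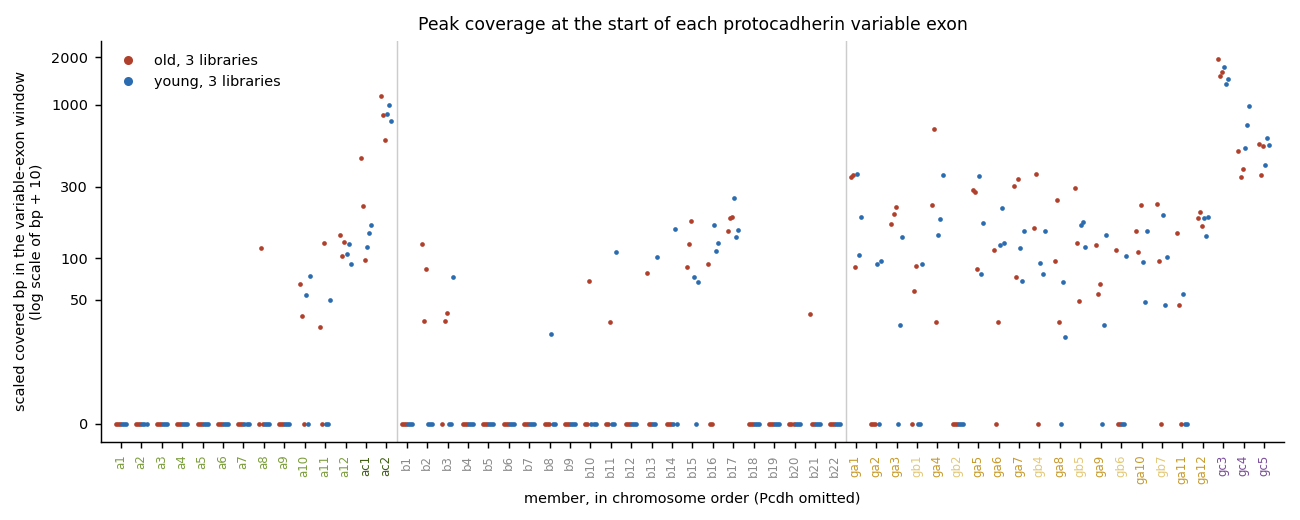
Covered base pairs in the 3500 bp window at the start of each variable exon, scaled to library total, on a log axis of bp + 10; each point is a library, with the 3 old libraries left of the 3 young ones for each member in chromosome order. Pcdhgc3 and Pcdhac2 stand highest, gamma A-type and B-type genes lie mostly below them, and most Pcdhb and the first Pcdha genes sit at 0.

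The C-type exons were the best covered classes of both the alpha and the gamma cluster. The mean window coverage over the 6 libraries was 901 ± 99.9 bp for the 3 gamma C-type genes and 119 ± 39.8 bp for the 18 gamma A-type and B-type genes (SD over 6 libraries). It was 540 ± 150 bp for the 2 alpha C-type genes and 17.4 ± 4.53 bp for the 12 other alpha genes. The 22 Pcdhb genes averaged 23.5 ± 4.70 bp, and among the gamma genes the 12 A-type exceeded the 6 B-type, with 138 ± 41.6 and 80.4 ± 39.8 bp. In the 5 paired comparisons made, namely gamma C-type against gamma A-type and B-type, alpha C-type against the other alpha genes, gamma A-type and B-type against Pcdhb and against the other alpha genes, and A-type against B-type, the first class was higher in 6 of 6 libraries. The two-sided exact paired permutation test gave p = 0.03125 for each, which is the smallest it can give, and 0.03125 after Benjamini-Hochberg adjustment over the 5. This test measures spread between libraries, not between genes. Means were 879 bp at Pcdhac2 and 202 bp at Pcdhac1, and 1609, 585 and 511 bp at Pcdhgc3, Pcdhgc4 and Pcdhgc5. Gene means of A-type (31.2 to 274 bp) and B-type (0 to 155 bp) overlapped.

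No member passed the test between ages. Of the 57 members, 18 had enough coverage (a mean of 100 bp) to be tested, and 0 of them passed an adjusted p of 0.05 by limma on log2(bp + 200), where 0.124% of the 20911 tested gene-end windows did. At an unadjusted p under 0.05 there were 2 members, against 8.69% of all windows. The fitted log2 change, old over young, was positive for 11 and negative for 7 of the 18, with a median of 0.07 against 0.02 for all windows tested. Among the 18 tested members, the 3 old values lay fully above the 3 young values for 1, Pcdhga3, and fully below for 2, Pcdhga6 and Pcdhgc4. Of all windows tested, 5.92% lay above and 6.42% below. Members too sparse to be tested are not in this count. Standard errors of the tested members ran from 0.12 to 0.41 on the log2 scale, so changes of about that size cannot be told from 0. Larger changes can be missed too, since Pcdhgc4, at −0.62 ± 0.18 (SE), did not pass.

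Over the first alpha genes almost nothing was called. Pcdha1 to Pcdha7 and Pcdha9 had no peak in any of the 6 libraries, and Pcdha8 had 1 peak, in old library 2. Pcdha10 had peaks in 4 libraries and Pcdha11 in 3, at both ages. Pcdha12, the last of these alternative exons, had peaks in all 6, with 144, 103 and 128 bp in old and 107, 125 and 91.3 bp in young libraries. These groups overlapped, and the log2 change was 0.08 ± 0.24 (SE, n = 3 each; limma adjusted p = 0.96). The class as a whole averaged 19.9, 21.5 and 21.2 bp in old libraries and 13.5, 10.4 and 18.02 bp in young libraries. All old values lay above the young ones, and the exact permutation test gave p = 0.1, the smallest that 3 against 3 libraries allow. The value of old library 2 includes 118 bp from its Pcdha8 peak, with −log10 q of 1.1 and centred 2016 bp inside the gene. Without that peak the groups would overlap.

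The 2 alpha C-type exons were covered in every library. At Pcdhac2, whose protein is needed in mice for serotonergic axons to spread apart, windows held 1143, 867 and 595 bp in old and 871, 1001 and 795 bp in young libraries. The old values bracketed the young ones, and the log2 change was −0.06 ± 0.17 (SE, n = 3 each; limma adjusted p = 0.96). Pcdhac1, the other C-type exon of the alpha cluster, had 459, 223 and 97.6 bp in old and 119, 149 and 166 bp in young libraries. Old library 1 was the highest and old library 3 the lowest of the 6, and the log2 change was 0.34 ± 0.27 (SE; limma adjusted p = 0.84). The strongest peak at Pcdhac1 in each library was centred 164.0 to 204.0 bp before the annotated start. That of Pcdhac2 reached into the exon in all libraries.

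In the beta array, which codes for single-exon adhesion proteins, 11 of 22 genes had no peak in any library and Pcdhb17 alone had one in all 6. Pcdhb17 had 154, 185 and 188 bp in old and 252, 139 and 155 bp in young libraries, overlapping ranges with a log2 change of −0.01 ± 0.22 (SE; limma adjusted p = 0.99). Its neighbours Pcdhb15 and Pcdhb16 came next in coverage but fell below the limit for testing. Pcdhb15 had 86.6, 125 and 179 bp in old and 73.2, 0 and 68.1 bp in young libraries, and all old values were above the young ones. Pcdhb16 had 91.1, 0 and 0 bp in old and 167, 112 and 127 bp in young libraries, and all old values were below the young ones.

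The peak over the start of Pcdhb16, at chr18:37477662-37477853 (mm10), was called in the 3 young libraries with −log10 q of 3.9, 3.2 and 4.0 and in 0 old libraries. The only old peak in that window, in old library 1, lay 257 bp inside the exon. Pcdhb2, singled out after its values were seen, showed the reverse: 125, 34.2 and 83.7 bp in old and 0 bp in every young library. Its 3 old peaks did not form a single region shared by all 3, the highest −log10 q among them was 2.4, and it was too sparse to be tested. The values of Pcdhb2 and Pcdhb15 thus lay above, and those of Pcdhb16 below, in old libraries. None of these windows was tested, and how often windows this sparse lie apart over the genome was not counted. The class mean was 23.4 ± 5.38 bp in old and 23.7 ± 5.12 bp in young libraries (SD, n = 3 each; exact permutation p = 1.0).

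Peaks were found at most of the gamma A-type and B-type exons. Of these 18 genes, 7 held a peak in all 6 libraries, 10 in some and 1, Pcdhgb2, in none. Mean coverage over the libraries reached 274 bp at Pcdhga4 and 241 bp at Pcdhga1, the first exon of the cluster. Of the 11 that could be tested, 8 had a positive and 3 a negative log2 change. Pcdhga3 had 171, 197 and 220 bp in old and 0, 31.5 and 139 bp in young libraries. All old values were above the young ones, with a log2 change of 0.66 ± 0.27 (SE; limma adjusted p = 0.47). The value of old library 2 includes 60.2 bp from a peak with −log10 q of 1.3, centred 2241.5 bp inside the gene. In the region over the start, old library 2 held 137 bp and young library 3 139 bp, so the groups overlapped there. Pcdhga6 had 114, 0 and 33.7 bp in old and 124, 216 and 128 bp in young libraries. Here all old values were below the young ones, with a log2 change of −0.53 ± 0.28 (SE; limma adjusted p = 0.66). This window sums separate short regions. In the one centred 95 bp before the start, old library 1 held 77.7 bp and young library 1 69.5 bp, so the groups overlapped there. The A-type genes averaged 158 ± 44.7 bp in old and 118 ± 33.1 bp in young libraries (exact permutation p = 0.3), and the B-type genes 87.5 ± 57.5 and 73.3 ± 22.5 bp in old and young libraries (SD, n = 3 each; exact permutation p = 0.7). Old library 3 had the lowest B-type mean of the 6, 22.9 bp.

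Most peaks in the windows of the gamma A-type and B-type, Pcdhb and alternative alpha genes sat near the annotated starts of the variable exons. Over the 113 peaks at gamma A-type and B-type genes, the median peak centre was 5.5 bp past the RefSeq gene start, with the middle 50% between −49.5 and 244 bp, and the median width was 87.0 bp. For Pcdhb the median centre was 30.5 bp before the start (29 peaks at 11 genes). For the alternative alpha exons it was 156 bp before the start (15 peaks at 4 genes). These offsets depend on where RefSeq places each gene start, and peaks of different libraries at a gene share their position, so they are given as a description.

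**Figure D3:**
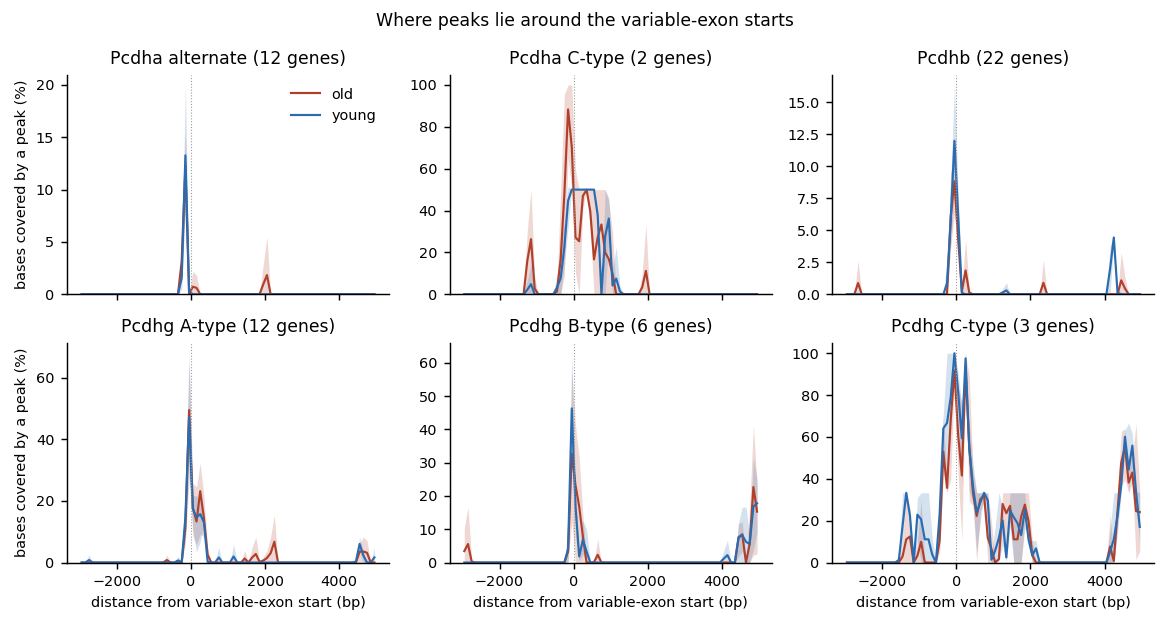
Mean percent of bases covered by a peak in steps of 100 bp around the variable-exon start, with step centres from 2950 bp before to 4950 bp after it, for each class; lines are means of 3 old and 3 young libraries, shading is their range, and vertical scales differ between panels. Coverage in both groups gathers at the start in each class, and is broader in the C-type classes.

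The gamma C-type exons had the highest mean coverage of the classes. Pcdhgc3, the first of them, had 1954, 1524 and 1625 bp in old and 1738, 1348 and 1462 bp in young libraries, more than 98.6% of all gene-end windows. The groups overlapped, and the log2 change was 0.15 ± 0.12 (SE; limma adjusted p = 0.85). It fell to −0.004 with no scaling. The −log10 q over its start ranged from 25.1 to 31.3 in old and from 21.9 to 45.0 in young libraries. Pcdhgc3 was the only member whose start held a peak among the 50000 strongest in all 6 libraries.

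Pcdhgc4, which mice need for the survival of inhibitory neurons, had 507, 344 and 391 bp in old and 533, 745 and 988 bp in young libraries. All old values were below all young ones. The log2 change was −0.62 ± 0.18 (SE), and the limma adjusted p of 0.22, the smallest of any member, did not pass. Pcdhgc5, whose protein binds GABA-A receptor subunits in neurons of rodents, had 567, 355 and 550 bp in old and 413, 620 and 559 bp in young libraries. These ranges overlapped, with a log2 change of −0.09 ± 0.18 (SE; limma adjusted p = 0.94).

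The difference at Pcdhgc4 was larger in the DNA just before it. Part of this DNA, most of the 1.0 kb before the start, also lies in the Pcdhgc4 window, so these results are not separate. The 5.0 kb bin at chr18:37810001-37815000, which ends shortly before the start of that gene, held 422, 46.0 and 202 bp in old and 481, 656 and 927 bp in young libraries. Every old value was below every young value, with a log2 change of −1.14 ± 0.32 (SE; limma adjusted p = 0.15). The peaks here fell in 2 places, around the Pcdhgc4 start itself and in a group of peaks about 1 kb before it, where old library 2 had none. Across the clusters 183 such bins exist, 63 held any peak, 28 could be tested and 0 passed, where 0.388% of 116848 bins of the genome did. At an unadjusted p under 0.05 there were 2 bins, against 14.4% of all bins. All old values were above the young ones in 1 of the 28 and below them in 4, against 9.19% and 10.1% of all bins.

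**Figure D4:**
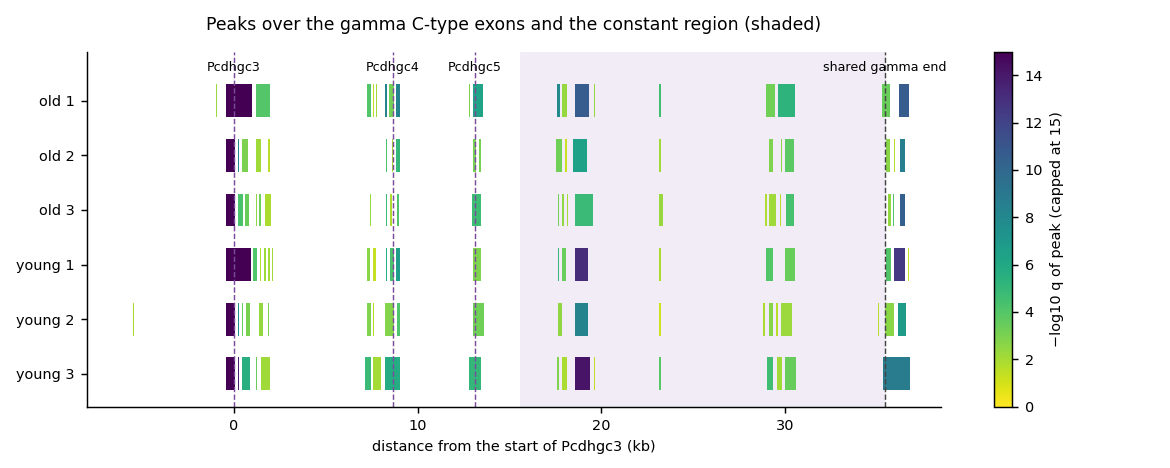
Peaks of each library, old rows above young rows, by distance in kb from the start of Pcdhgc3; boxes are peaks coloured by −log10 q (capped at 15), dashed lines mark the 3 C-type starts and the shared end of the gamma genes, and shading marks the constant region. Peaks before Pcdhgc4 cover less in old than in young libraries (46.0 to 422 against 481 to 927 bp in the bin before it), while the constant region is covered in all 6 libraries.

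The other bin at an unadjusted p under 0.05 was chr18:37840001-37845000, over the shared end of the gamma genes. It held 920, 740 and 563 bp in old and 923, 1055 and 1239 bp in young libraries, with all old values below the young ones. The log2 change was −0.45 ± 0.16 (SE; limma adjusted p = 0.24), but it was 0.29 on the 50000 strongest peaks. A single region spans this place, from 188 bp before to 1329 bp after the shared end, and was called in all 6 libraries.

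Set per length, the gamma constant region was the most densely covered segment of the locus and the beta array the least. Mean coverage over the 6 libraries was 1218 bp per 10 kb in the gamma constant region, 324 in the gamma variable array and 172 in the alpha constant region. It was 103 bp per 10 kb in the spacing between beta and gamma, 63.5 in the alpha variable array, 48.1 in the spacing between alpha and beta, and 20.6 in the beta array. The gamma constant region, which holds the exons for the cytoplasmic tail common to all gamma proteins, had 2702, 2461 and 2804 bp in old and 1920, 2251 and 2356 bp in young libraries. All old values lay above the young ones, with means of 2656 ± 176 and 2176 ± 227 bp in old and young libraries (SD, n = 3 each; ratio 1.22; exact permutation p = 0.1). The difference in means, 480 bp, became −187.5 bp on the 50000 strongest peaks. Before scaling to library totals, old libraries 2 and 3 fell below young library 3, so the groups overlapped.

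In no other segment did the old and young values lie apart. The alpha constant region held 679 ± 74.1 bp in old and 793 ± 126 bp in young libraries (ratio 0.86; exact permutation p = 0.2), and the alpha variable array 1530 ± 410 and 1214 ± 61.4 bp in old and young libraries (ratio 1.26; p = 0.4 by the same exact test). The gamma variable array held 5253 ± 1107 bp in old and 5137 ± 630 bp in young libraries (ratio 1.02; exact permutation p = 0.9), and the beta array 538 ± 79.1 and 521 ± 113 bp in old and young libraries (ratio 1.03; exact permutation p = 0.9). All of these are means ± SD of 3 libraries, and the ranges of the groups overlapped.

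**Figure D5:**
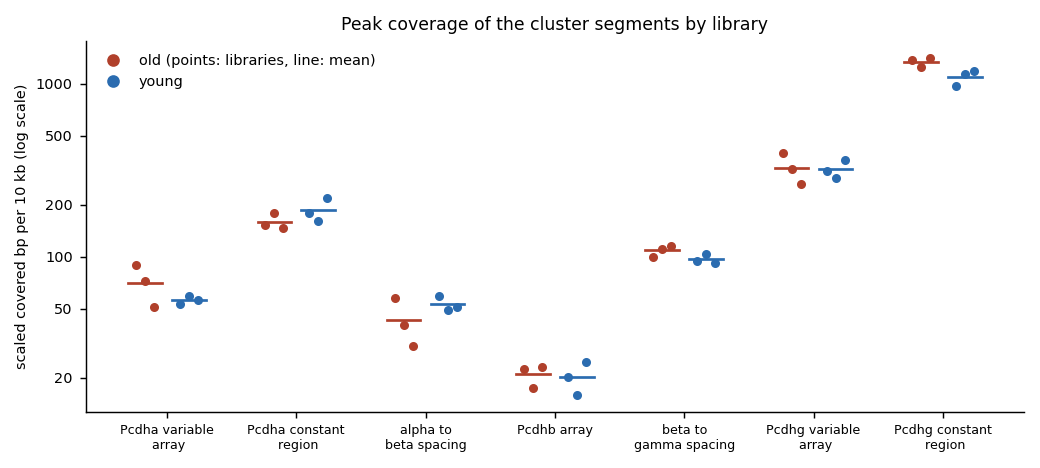
Scaled covered base pairs per 10 kb in each of the 7 segments of the locus, on a log axis; points are libraries, with old left of young, and lines are group means. The order of segments is alike in both groups, from 20.6 bp per 10 kb in the beta array to 1218 in the gamma constant region, and old and young points do not overlap in the gamma constant region only.

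Several of the strongest peaks of the locus lay outside the variable exons. Only 7 of the 100 regions held a peak among the 50000 strongest in any library, and 5 of these were not at a member's exon. One lay in the spacing between alpha and beta, 29.2 kb past the end of the alpha genes at chr18:37218107-37218495. Its −log10 q was 11.3, 4.9 and 7.6 in old and 13.4, 8.8 and 10.1 in young libraries. One lay in the spacing between beta and gamma about 6 kb before Pcdhga1, at chr18:37655488-37656057, with −log10 q of 9.8 to 12.4 in old and 9.9 to 20.9 in young libraries. These values belong to each library's own list and were not compared between ages. The positions of known enhancers are not in the files, so none is assigned to these regions.

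The region with the highest −log10 q of the locus in 5 of the 6 libraries belongs to another gene; in young library 3 the Pcdhgc3 start was higher. It covers chr18:37643699-37644595 at an end of Taf7, which codes for a subunit of the general transcription factor TFIID and lies between the beta and gamma clusters, with −log10 q of 32.9 to 46.7 in old and 36.8 to 53.8 in young libraries. It held 801, 1031 and 844 bp in old and 673, 944 and 756 bp in young libraries, which overlap. The spacing between beta and gamma, which contains it, had 1530 ± 111 bp in old and 1361 ± 83.7 bp in young libraries, and that between alpha and beta 328 ± 106 and 405 ± 39.4 bp in old and young libraries (SD, n = 3 each; exact permutation p = 0.2 and p = 0.3). Within the gamma constant region the strongest region, chr18:37824895-37825961, held 714, 887 and 1146 bp in old and 642, 771 and 704 bp in young libraries.

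Of the 100 regions, 0 were called in all 3 old and no young library, and 2 in all 3 young and no old library. Of all regions in the genome, 0.513% and 1.42% had these patterns. The 2 were the Pcdhb16 start and a region of 71 bp at chr18:37189154-37189224, 257 bp past the end of the alpha genes, with −log10 q of 2.0 to 4.2 in the young libraries.

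Measured over the whole gene with 10 kb on each side, 35 members were covered enough to be tested, namely all 14 Pcdha and all 21 Pcdhg genes and none of the Pcdhb genes. Of these 0 passed by limma at an adjusted p of 0.05, where 0.962% of 16952 loci did, and 0 had an unadjusted p under 0.05, against 12.8% of all loci. On the 50000 strongest peaks 21 could be tested and 0 passed, against 1.28% of loci. All 21 log2 changes were negative on that list, with a median of −0.14 against −0.002 for all loci. On the deposited lists 20 were positive and 15 negative, with a median of 0.004 against 0.007 for all loci. The loci of a cluster overlap almost wholly, so these are not separate results. Log2 changes on the deposited lists were between −0.10 and 0.07 for Pcdha and between −0.11 and 0.04 for Pcdhg genes.

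Genes with which the clustered protocadherins work were examined as loci of the same kind. Of 20 regulators of the clusters, among them Ctcf, the cohesin genes and DNA methylation genes, 1 was higher and 0 lower in old libraries, against 0.383% and 0.578% of all loci; 10 had a positive and 10 a negative log2 change, with a median of −0.01 against 0.01 for all loci. The one that passed was Rad21, a subunit of the cohesin ring. It held 2401, 2437 and 2183 bp in old and 1472, 1652 and 1640 bp in young libraries. The old values were all above the young ones, with a log2 change of 0.51 ± 0.11 (SE; limma adjusted p = 0.029). It was 0.03 with an adjusted p of 0.98 on the 50000 strongest peaks, and 0.36 with an adjusted p of 0.59 with no scaling. Leaving out 1 library gave an adjusted p between 0.0499 and 0.14, past the threshold only without old library 1. None of the 15 partner genes passed, which code for kinases, subunits of the WAVE actin complex and proteases that cut protocadherins; 6 had a positive and 9 a negative change.

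Protocadherins outside the clusters have no shared constant exons. Of 12 listed, 10 were covered enough to be tested, and 0 rose and 1 fell in old libraries, against 0.383% and 0.578% of all loci. Of the 10, 2 had a positive and 8 a negative log2 change, with a median of −0.17 against 0.01 for all loci. An unadjusted limma p under 0.05 was found for 6 of the 10, against 12.8% of all loci. Of these, Pcdh1 and Pcdh12 were higher in old libraries, and Pcdh7, Pcdh9, Pcdh10 and Pcdh15 lower. On the 50000 strongest peaks 5 could be tested, with 2 positive and 3 negative changes. There 0 passed and 1 had an unadjusted p under 0.05. Pcdh7 held 5669, 5407 and 5247 bp in old and 7527, 6601 and 7460 bp in young libraries. All old values were below the young ones, with a log2 change of −0.39 ± 0.075 (SE; limma adjusted p = 0.017). The change was −0.16 with an adjusted p of 0.86 on the 50000 strongest peaks and −0.55 with an adjusted p of 0.35 with no scaling, and leaving out 1 library gave an adjusted p between 0.011 and 0.10, past the threshold only without old library 1 or young library 2. The unclustered Pcdh1 and Pcdh12, which lie on the same chromosome near the clusters, had the 2 positive changes. Pcdh1 held 3661 bp in old and 3085 bp in young libraries on average (log2 change 0.23 ± 0.086, SE; limma adjusted p = 0.23), and Pcdh12, known from endothelium, 1589 and 1034 bp in old and young libraries (0.57 ± 0.21, SE; limma adjusted p = 0.27).

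Around the clusters, 0 of 30 neighbouring genes passed by limma, against 0.962% of all loci, and 7 had an unadjusted p under 0.05, against 12.8%. There were 24 positive and 6 negative log2 changes with a median of 0.12, which was −0.01 with 14 positive and 15 negative on the 50000 strongest peaks. Neighbouring loci can share peaks. Taf7 and Slc25a2, which codes for a mitochondrial carrier and lies beside it, had changes of 0.12 and 0.08 (limma adjusted p = 0.84 and 0.90). Cd14, a neighbour that codes for the lipopolysaccharide co-receptor of macrophages, held 3136, 3228 and 2941 bp in old and 3136, 3464 and 3390 bp in young libraries. These ranges overlapped, with a log2 change of −0.10 ± 0.086 (SE; limma adjusted p = 0.71).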

How the data were processed

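Omni-ATAC libraries (3 old, 3 young) were read as paired ends of 125 bp on 4 lanes, per the labels' protocols. Tools named in the submitters' processing notes are MACS2 2.1.0.20140616, Bowtie2 2.2.6, cutadapt 1.14, Trim Galore 0.4.4, Picard and SAMtools, with mm10 as the build. How duplicates, and reads that match several similar exons, were handled is not given in the sources used here. From each library the authors deposited a broad peak list of its own. A deposited peak carries −log10 p and −log10 q values, a score that is, for over 99.99% of peaks in every list, 10 times the −log10 q cut to a whole number, and a ratio, its fold enrichment over local background; here they serve only for ranking and filtering within lists. Read depth is unknown.

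Genes were placed by RefSeq GRCm38.p6, whose primary chromosomes are those of mm10. Readthrough models and a pseudogene in the clusters were not members. Python 3.11.15 (numpy 2.4.6, pandas 2.3.3, scipy 1.17.1) summed covered bp over 5 kb bins, gene-end windows and gene loci. Sums were scaled to a library's total covered length, or for loci to its sum over loci. Features with a mean of at least 100 bp (bins, windows) or 500 bp (loci) entered limma 3.58.1 (R 4.3.3; trended, robust) as log2(bp + 200). Contrasts are old minus young, and p-values were adjusted by Benjamini-Hochberg over all features tested. Fold changes on this scale understate sparse features. A variable array ends 2.5 kb past the last variable-exon end. Segments and classes were compared with two-sided exact permutation tests. The fit was tested on simulated data. Figures used matplotlib 3.10.9.

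Full values are given for the 3 best-covered members of each cluster, the 5 C-type members, members that pass or whose groups lie apart, Taf7, Slc25a2, Cd14, Pcdh1, Pcdh12 and listed genes that pass. Members and lists were chosen with earlier results of these data known. Alternatives were limits on −log10 q of 2 and 5, the 50000 strongest peaks, other scalings, pseudocounts, filters, bins, windows and overlaps, each library left out in turn, and a replicate block.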

Additional observations from a re-analysis of the deposited data

How the results depend on the processing

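No bin, window or locus within the clusters passed the threshold under any alternative run, so the count of 0 was the same in all of them, while the counts over the whole genome were not. Counts of bins called genome-wide were 453 on the deposited lists, 727 and 230 at a −log10 q of at least 2 and 5, 3159 on the 50000 strongest peaks, 0 with no scaling, 0 with a pseudocount of 50 bp, 1291 with no filter, 1717 with quantile normalization and 0 in every fit without 1 library. Counts of windows called were 26 on the deposited lists, 14 at a −log10 q of at least 5, 125 on the 50000 strongest peaks, 0 with no scaling, 3 with a pseudocount of 50 bp, 1 with no filter, 12 with 1 kb inside the gene end, and 1 to 121 without 1 library. For loci they were 163 on the deposited lists, 9 at a −log10 q of at least 5, 15 with no scaling and 31 to 352 without 1 library.

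Same-numbered libraries deviated together with correlations of 0.14, 0.14 and −0.16, and differently numbered ones with −0.33 to 0.27. So few values cannot decide whether the numbers pair libraries, and the main fits were unpaired. The replicate block gave 0 called bins and 276 called loci over the genome, with 0 in the clusters; on the 50000 strongest peaks, added after the data were seen, it gave 1264 bins, 0 windows and 0 loci, and the changes it reversed there were those reversed on that list without it.

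The old minus young difference of the beta array, 17.6 bp, was −220.2 bp at a −log10 q of at least 2, −49.0 bp with no scaling and −38.3 to 74.3 bp without 1 library. That of the gamma variable array, 115 bp, was −616.4 and −367.3 bp at a −log10 q of at least 2 and 5, −85.3 bp on the 50000 strongest peaks, −430.0 bp with no scaling and −464.2 to 638.5 bp without 1 library. That of the gamma constant region was −187.5 bp on the 50000 strongest peaks and that of the spacing between beta and gamma −1.33 bp with no scaling. Regions in the clusters numbered 17 and 6 at a −log10 q of at least 5 and on the 50000 strongest peaks, of which 4 and 3 were in every library, and 16 were in every library at a −log10 q of at least 2. Regions of young libraries only numbered 1, 0 and 0 on these lists (at least 2, at least 5, strongest) and 2 to 5 without 1 library; those of old libraries only numbered 0 to 1 without 1 library.

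Log2 changes that turned sign were all of members or bins that did not pass the threshold, and the cause was not tested. Pcdhac2 was 0.0558 at a −log10 q of at least 2 and −0.2374 to 0.1407 without 1 library. Pcdhgc3 was −0.0949 at a −log10 q of at least 5, −0.0028 on the 50000 strongest peaks and −0.0036 with no scaling. Pcdhb17 was 0.0342 with quantile normalization and −0.0931 to 0.1133 without 1 library. Pcdhgc5 was −0.2068 to 0.0647 without 1 library. The Pcdhga1 locus was −0.0616 and −0.2733 at a −log10 q of at least 2 and 5, −0.1322 on the 50000 strongest peaks, −0.1265 with no scaling, and −0.0548 to 0.1171 without 1 library. The Pcdha1 locus was −0.0744 with no scaling and −0.0412 to 0.2311 without 1 library. Of the bins, chr18:37480001-37485000 was −0.17 and chr18:37760001-37765000 was 0.0005 at a −log10 q of at least 2, and chr18:37840001-37845000 was 0.29 on the 50000 strongest peaks. The change of Pcdhgc4 was negative in every alternative in which it could be tested. Coverage by called peaks cannot show differences in height, and at most of the beta and alpha exons it rests on 1 short peak or none.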

Other observations

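Pcdhgb8, which RefSeq lists as a pseudogene within the gamma array and which is therefore no member, had a region of 150 bp in all 6 libraries, at chr18:37761583-37761732. It held 133, 149 and 135 bp in old and 108, 140 and 114 bp in young libraries, and its centre lay 143.5 bp before the annotated start. These ranges overlapped. The 5 kb bin that contains it, chr18:37760001-37765000, held 133, 149 and 135 bp in old and 222, 172 and 221 bp in young libraries, with all old values below the young ones (log2 change −0.26 ± 0.18, SE; limma adjusted p = 0.58). More of the gamma exons that code for protein, 11 of the 18 of A-type and B-type, lacked a peak in at least 1 library.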
